A study of Mus musculus with 24 samples.

Results

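The genes described here set how much glucose the liver releases and how it answers to insulin, and they were followed in the livers of p16-3MR and wild-type (WT) mice. The 9 members were chosen by name: G6pc, Pck1 and Fbp1 of glucose production, Pklr of glycolysis, Gys2 of glycogen synthesis, Ppargc1a and Tat of the fasting and glucocorticoid programme, and Igfbp1 and Irs2 of the insulin response. All 9 were read among the 21755 rows of the p16-3MR table, and 4 of them (G6pc, Ppargc1a, Pklr and Tat) among the 12643 rows of the WT table. The row labels of the WT table lack 9 lower-case letters, so that the labels of the other 5 members could stand for several genes each, such as Pck1 or Pcsk1, and their WT values were not used here.

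RNA of 24 liver samples was sequenced, 12 of p16-3MR and 12 of WT mice, with 3 females and 3 males under ganciclovir (GCV) and 3 females and 3 males under vehicle (VEH) in each genotype. All p16-3MR mice, VEH controls included, carry the 3MR cassette in the p16 locus of a bacterial artificial chromosome, and its viral thymidine kinase turns GCV into a toxic product in cells that transcribe p16. WT mice lack the cassette and show what GCV does without it. The p16-3MR mice were 16 to 18 months old when the monthly rounds of 5 daily injections began and about 28 months old when their livers were taken. The WT mice began at 6 months and their livers were taken 3 months later. GCV was given at 150 mg/kg per the labels (the methods of the study state a lower dose), and VEH was the same alkaline water without drug. The p16-3MR libraries form batch 1 and the WT libraries batch 2, so that genotype, age, length of treatment and batch cannot be told apart, and no test was made between the 2 tables. The feeding state of the mice when the livers were taken is not given in the sources used here.

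In fasting, the liver makes glucose from lactate, amino acids and glycerol. Glucagon, through cAMP and the coactivator encoded by Ppargc1a, and glucocorticoids raise the transcription of Pck1 and G6pc. After a meal, insulin acts through the docking protein encoded by Irs2 and the kinase AKT, excludes FOXO1 from the nucleus and lowers G6pc, Pck1, Igfbp1 and Irs2 itself, while glucose acts through the factor ChREBP on Pklr. Several of the 9 genes thus respond to these states, and several change within hours. Their levels alone do not show which state a liver was in.

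Promoter sequences are shown for 4 members on which these hormonal and nutrient signals are known to act: G6pc and Ppargc1a, the only members called in any main test, Pklr as the glycolytic counterpart, and Igfbp1 as the member with one of the widest ranges between livers. Each run holds the 250 bases before a RefSeq start site on GRCm38.p6, read 5′ to 3′ along the gene's strand, with motif matches in capitals. G6pc lies at chr11:101367466-101367715 (plus strand), Ppargc1a at chr5:51567726-51567975 (minus strand), the downstream start of Pklr, the one used in liver, at chr3:89136373-89136622 (plus strand), and Igfbp1 at chr11:7197537-7197786 (plus strand).
G6pc: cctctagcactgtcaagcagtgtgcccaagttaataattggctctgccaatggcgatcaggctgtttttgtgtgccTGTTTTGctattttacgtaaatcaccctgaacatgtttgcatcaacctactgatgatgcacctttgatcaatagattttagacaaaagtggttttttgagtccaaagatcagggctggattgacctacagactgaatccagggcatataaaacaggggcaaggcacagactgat
Ppargc1a: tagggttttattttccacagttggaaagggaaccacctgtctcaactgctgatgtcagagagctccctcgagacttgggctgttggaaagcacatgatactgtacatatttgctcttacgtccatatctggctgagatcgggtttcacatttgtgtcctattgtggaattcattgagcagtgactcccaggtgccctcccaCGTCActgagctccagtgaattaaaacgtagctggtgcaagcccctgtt
Pklr: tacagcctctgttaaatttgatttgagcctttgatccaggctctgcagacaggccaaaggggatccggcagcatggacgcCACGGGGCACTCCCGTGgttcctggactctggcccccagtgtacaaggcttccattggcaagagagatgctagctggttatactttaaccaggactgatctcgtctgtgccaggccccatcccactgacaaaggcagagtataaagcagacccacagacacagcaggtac
Igfbp1: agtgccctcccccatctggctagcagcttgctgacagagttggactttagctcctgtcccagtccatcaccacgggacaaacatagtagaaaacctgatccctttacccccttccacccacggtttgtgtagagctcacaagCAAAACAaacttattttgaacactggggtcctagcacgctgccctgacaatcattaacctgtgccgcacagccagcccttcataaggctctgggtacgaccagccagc
In the G6pc run the capitals mark TGTTTTG, the core of an insulin response element bound by FOXO factors, 174 bases before the start, and in the Igfbp1 run the same letters on the opposite strand, 108 bases before it. In the Ppargc1a run they mark TGACG, the core of a cAMP response element, on the opposite strand 49 bases before the start. In the Pklr run they mark a pair of E-boxes of the kind ChREBP binds, CACGNG and CNCGTG with 5 bases between them, 170 bases before the start. On both strands, TGTTTTG stands in 5.56% of the 32851 promoter windows of the same length, TGACG in 17.8%, and the paired E-box in 0.0396%. Among the 8 members with a window, TGTTTTG was also found for Irs2 and TGACG for Pck1. No match to these letters or to the glucocorticoid half-site TGTTCT (16.1% of windows) was found for Tat or Fbp1. The RefSeq start of G6pc lies inside the GENCODE gene model. The matches are descriptions of the sequence, and binding was not measured.

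Before the comparisons, 4 livers need to be named. Total counts ran from 5005760 to 7160172 in p16-3MR livers and from 3084517 to 5667904 in WT livers, and the floor of 3 counts stood at 0.419 to 0.599 and 0.529 to 0.973 per 1000000 counts of the library before TMM scaling. Levels are given as CPM, counts per 1000000 after TMM scaling. In the GCV-treated p16-3MR female 33, 64.0% of counts came from mitochondrially encoded genes, against 12.3% to 22.4% in the other p16-3MR livers. In the GCV-treated p16-3MR male 32, the summed level of 7 hepatocyte markers was 28576 CPM, the lowest of the 12 livers, and that of 6 Kupffer cell markers 2828 CPM, the highest. In WT males, the whole profile of the VEH-treated male 1 lay closer to the GCV-treated males 1 and 3 (chi-square per degree of freedom 4.64 and 9.12) than to the VEH-treated males 2 and 3 (34.2 and 34.3), and the GCV-treated male 2 lay closer to the VEH-treated males 2 and 3 (6.14 and 7.60) than to the GCV-treated males 1 and 3 (31.6 and 23.4). These 2 males go against their labels in this measure, the labels were kept, and where leaving them out changes a call, the members' WT values and the counts of listed genes are given with and without them. Liver markers were present in every liver. The readable markers of kidney tubule summed to at most 1.26 CPM, those of fat to at most 7.66, and those of pancreas acinar cells, read in p16-3MR livers only, to at most 25.5 CPM, in male 32.

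Glucose production was represented by G6pc, Pck1 and Fbp1. G6pc (chr11:101367561-101377903 on GRCm38) encodes the catalytic subunit of glucose-6-phosphatase, which frees glucose from its phosphate so that it can leave the hepatocyte. In p16-3MR females, G6pc stood at 59.4 CPM in liver 31, 14.7 in liver 33 and 39.4 in liver 35 under GCV, and at 66.2 CPM in liver 27, 35.2 in liver 28 and 144 in liver 29 under VEH. The groups overlapped, and the log2 fold change was -1.09 (SE 0.89, adjusted p = 0.742), and -0.44 without VEH-treated female 29. In p16-3MR males, it was 43.3 CPM in liver 30, 1.95 in liver 32 and 65.1 in liver 34 under GCV, and 45.4 CPM in liver 24, 133 in liver 25 and 172 in liver 26 under VEH. A log2 fold change of -1.67 (SE 0.91) also missed the threshold (adjusted p = 1), with -1.13 without liver 32 and -2.37 without liver 34. Liver 32 held the lowest G6pc level of the 12 livers, and G6pc had the widest range of the 9 members, 88.2-fold from lowest to highest. Without livers 32 and 33 the range of G6pc was 4.89-fold, and Igfbp1 had the widest of the 9, 27.8-fold. Per 1000 CPM of hepatocyte markers, G6pc was lowest in livers 32 (0.0683 CPM) and 33 (0.0895), which held the lowest and the highest hepatocyte sum, and ran from 0.273 to 1.81 in the others. On the same scale Pck1 in liver 32 was 2.28, between VEH-treated males 26 and 24, the lowest and highest of their group. Fbp1 (1.83), Pklr (0.393), Tat (1.49), Gys2 (0.458) and Ppargc1a (0.058) in liver 32 lay below all VEH-treated males. Igfbp1 (1.39) and Irs2 (0.406) lay above them. In bulk tissue, fewer cells of a type and less RNA per cell cannot be told apart.

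Pck1 (chr2:173153048-173159273) encodes the cytosolic phosphoenolpyruvate carboxykinase, the step that commits oxaloacetate to glucose. In p16-3MR females it was 243 CPM in liver 31, 469 in liver 33 and 489.6 in liver 35 under GCV, and 154 CPM in liver 27, 491 in liver 28 and 447 in liver 29 under VEH. The highest values of the groups were alike and the VEH group reached lower, with a log2 fold change of 0.14 (SE 0.64, adjusted p = 0.998), and -0.23 without VEH-treated female 27. In males, Pck1 was 445 CPM in liver 30, 65.1 in liver 32 and 336 in liver 34 under GCV, and 209.7 CPM in liver 24, 238 in liver 25 and 133 in liver 26 under VEH. Livers 30 and 34 thus lay above the VEH-treated males and liver 32 below them. On the log2 scale the difference was 0.54 (SE 0.64, adjusted p = 1). It was 0.98 without liver 32 and 0.0019 without liver 30.

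Fbp1 (chr13:62864753-62888282), which encodes the liver fructose-1,6-bisphosphatase, was 281 CPM in liver 31, 29.4 in liver 33 and 604 in liver 35 in GCV-treated p16-3MR females, and 446 CPM in liver 27, 439.7 in liver 28 and 348 in liver 29 in VEH-treated ones. The 3 GCV-treated livers lay on both sides of the tightly placed VEH group, and liver 33 had the lowest value of all 12 livers. In males, Fbp1 was 217 CPM in liver 30, 52.4 in liver 32 and 406 in liver 34 under GCV, and 179 CPM in liver 24, 411 in liver 25 and 375 in liver 26 under VEH. The log2 fold changes were -0.43 (SE 0.83, adjusted p = 0.925) in females and -0.51 (SE 0.83, adjusted p = 1) in males. Without liver 33 the value in females was 0.05, on the other side of 0, and without liver 35 it was -1.40. The value in males was -0.07 without liver 32 and -1.26 without liver 34. Within liver 33, Pck1 and Ppargc1a stood in the upper part of their ranges while Fbp1, G6pc and Pklr stood at or near the bottom of theirs, so the genes of glucose production did not move together there.

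**Figure D1:**
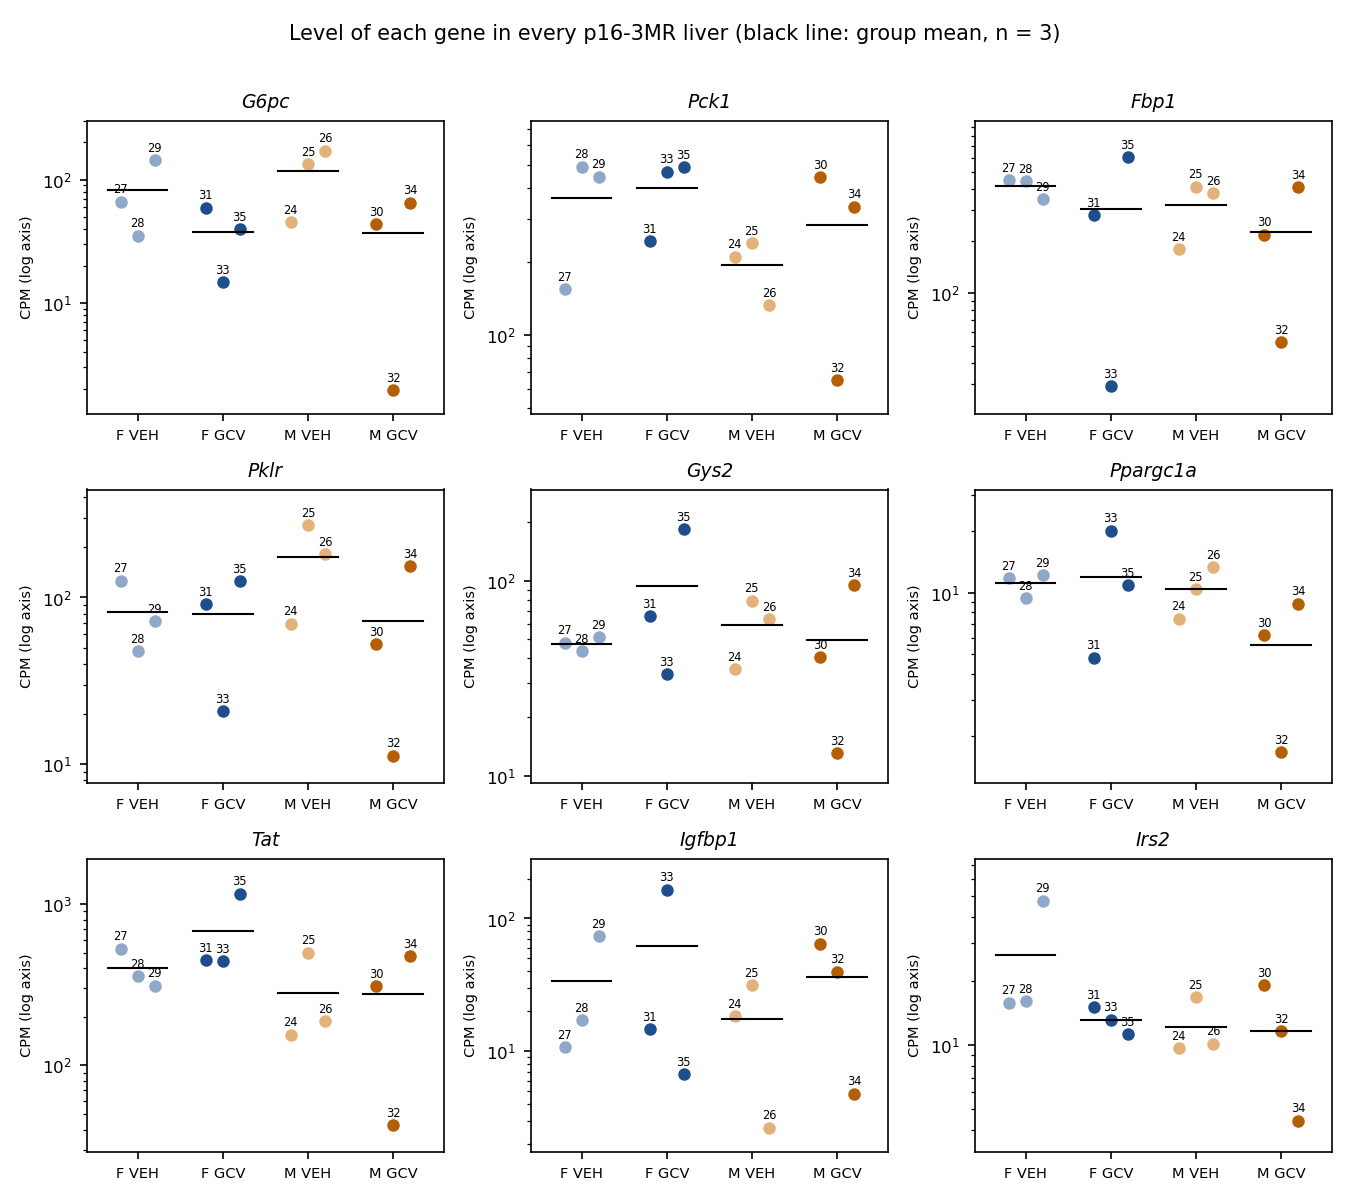
CPM of the 9 genes (log axis, 1 panel a gene) in each of the 12 p16-3MR livers, by sex and treatment; points are livers with their numbers and black lines are group means (n = 3). GCV-treated male 32 is the lowest point in 6 of the 9 panels, and the groups overlap in all panels except Irs2 in females.

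Pklr (chr3:89136142-89146784) encodes the liver pyruvate kinase, the last step of glycolysis, and rises with carbohydrate feeding. In p16-3MR females it was 90.8 CPM in liver 31, 20.9 in liver 33 and 126 in liver 35 under GCV, and 126 CPM in liver 27, 47.5 in liver 28 and 72.2 in liver 29 under VEH, which gave a log2 fold change of -0.04 (SE 0.81, adjusted p = 1), with 0.41 without VEH-treated female 27 and -0.535 without liver 35. In males it was 52.3 CPM in liver 30, 11.2 in liver 32 and 153 in liver 34 under GCV, and 69.7 CPM in liver 24, 271 in liver 25 and 181 in liver 26 under VEH. The VEH-treated males 25 and 26 were the highest livers of the 12 and male 32 the lowest, and the log2 fold change was -1.27 (SE 0.82, adjusted p = 1). It was -2.46 without liver 34 and -0.78 without liver 32.

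Gys2 (chr6:142422613-142473109), the glycogen synthase of the liver, was 65.9 CPM in liver 31, 33.2 in liver 33 and 183 in liver 35 in GCV-treated females, and 48.1 CPM in liver 27, 43.6 in liver 28 and 51.2 in liver 29 in VEH-treated females. The VEH group was narrow and liver 35 stood far above it. Its log2 fold change was 0.99 (SE 0.66, adjusted p = 0.727), and it rested on liver 35, without which it was 0.07. In males, Gys2 was 40.6 CPM in liver 30, 13.1 in liver 32 and 94.7 in liver 34 under GCV, and 35.4 CPM in liver 24, 78.9 in liver 25 and 63.5 in liver 26 under VEH (log2 fold change -0.26, SE 0.66, adjusted p = 1), with -1.14 without liver 34 and 0.16 without liver 32.

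Ppargc1a (chr5:51454250-51567726) encodes PGC-1alpha, a coactivator of fasting genes and of mitochondrial biogenesis, and had the lowest maximum of the members, with 17 to 97 counts per p16-3MR liver. It was 4.82 CPM in liver 31, 20.1 in liver 33 and 10.9 in liver 35 in GCV-treated females, and 11.8 CPM in liver 27, 9.40 in liver 28 and 12.2 in liver 29 in VEH-treated females. The GCV-treated livers spread to both sides of the VEH group (log2 fold change 0.04, SE 0.58, adjusted p = 1), and without liver 33 the value was -0.56. In males it was 6.20 CPM in liver 30, 1.66 in liver 32 and 8.84 in liver 34 under GCV, and 7.47 CPM in liver 24, 10.4 in liver 25 and 13.3 in liver 26 under VEH. The log2 fold change in males was -0.91 (SE 0.58, adjusted p = 1), with -0.50 without liver 32 and -1.41 without liver 34.

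Tat (chr8:109990437-109999803), the glucocorticoid-induced tyrosine aminotransferase that feeds tyrosine carbon into glucose production, was 449.8 CPM in liver 31, 441 in liver 33 and 1158 in liver 35 in GCV-treated females, and 529 CPM in liver 27, 358 in liver 28 and 312 in liver 29 in VEH-treated females. In females the log2 fold change was 0.77 (SE 0.74, adjusted p = 0.782), and 0.16 without liver 35. In males it was 309 CPM in liver 30, 42.6 in liver 32 and 473 in liver 34 under GCV, and 155 CPM in liver 24, 500.2 in liver 25 and 187 in liver 26 under VEH. Male 32 was the lowest of all 12 livers and the groups overlapped, with a log2 fold change of -0.03 (SE 0.74, adjusted p = 1), -0.67 without liver 34 and 0.68 without VEH-treated male 25.

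Igfbp1 (chr11:7197782-7202546) encodes a secreted protein that binds insulin-like growth factors and is shut off quickly by insulin. In p16-3MR females it was 14.7 CPM in liver 31, 165 in liver 33 and 6.71 in liver 35 under GCV, and 10.7 CPM in liver 27, 17.2 in liver 28 and 73.9 in liver 29 under VEH. In CPM, liver 33 alone exceeded every other liver of the table, while its 213 counts before scaling lay below the 587 of VEH-treated female 29. The log2 fold change of 0.83 (SE 1.16, adjusted p = 0.853) became -1.74 without liver 33 and 2.04 without VEH-treated female 29, so its direction rested on single livers. In males it was 64.5 CPM in liver 30, 39.7 in liver 32 and 4.80 in liver 34 under GCV, and 18.3 CPM in liver 24, 31.4 in liver 25 and 2.66 in liver 26 under VEH (log2 fold change 1.06, SE 1.16, adjusted p = 1), with 0.34 without liver 30 and 1.79 without VEH-treated male 25. Both male groups spanned more than the difference between them.

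Irs2 (chr8:10984681-11008458), the insulin receptor substrate through which the liver answers to insulin, was the 1 member whose GCV and VEH groups did not overlap in p16-3MR mice. In females it was 15.0 CPM in liver 31, 13.1 in liver 33 and 11.2 in liver 35 under GCV, and 15.8 CPM in liver 27, 16.1 in liver 28 and 47.4 in liver 29 under VEH. The highest GCV-treated liver lay just under the lowest VEH-treated one. Over all 21755 genes, 7.35% showed such a separation with lower values under GCV. For Irs2 the log2 fold change was -1.01 (SE 0.54, adjusted p = 0.674), and without VEH-treated female 29 it was -0.32. In males Irs2 was 19.0 CPM in liver 30, 11.6 in liver 32 and 4.42 in liver 34 under GCV, and 9.69 CPM in liver 24, 16.8 in liver 25 and 10.2 in liver 26 under VEH (log2 fold change -0.05, SE 0.53, adjusted p = 1). The log2 fold change was 0.33 without liver 34 and -0.62 without liver 30.

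In p16-3MR mice, then, 0 of 9 members passed an adjusted p-value of 0.05 for GCV against VEH in either sex by edgeR, DESeq2 or limma-voom. Of the whole table, edgeR called no gene in females (0%) or in males (0%), DESeq2 called 86 (0.395%) and 5 (0.023%), and limma-voom 7 (0.0322%) and 145 (0.667%). At an unadjusted p-value under 0.05 stood 0 members in females by any of the 3 tools, beside 7.37% of all genes by edgeR, 8.42% by DESeq2 and 11.8% by limma-voom. In males 0 members stood there by edgeR (1.91% of all genes) or DESeq2 (1.92%), and 5 by limma-voom, which put 5018 genes of the table (23.1%) at that level. With each liver left out in turn, 7 of the 9 log2 fold changes in females and 6 of the 9 in males moved by more than 1.5-fold at least once, and 5 (Pck1, Fbp1, Ppargc1a, Pklr and Igfbp1) and 3 (Tat, Irs2 and Gys2) changed sign. The median log2 fold change of the 9 members was 0.04 in females, beside 0.00 over all genes, and -0.26 in males, beside 0.04. The difference between the female and male responses was tested for each member, and the estimates ran from -0.96 for Irs2 to 1.25 for Gys2, with no member called (lowest adjusted p = 0.983). Both ends moved with single livers, Irs2 to -0.26 without VEH-treated female 29, and Gys2 to 0.33 without liver 35 and 2.14 without liver 34. Of all genes, edgeR called 0 (0%), DESeq2 0.0138% and limma-voom 0.0046%, and no tool called a member. At an unadjusted p-value under 0.05, edgeR had 822 genes (3.78%) and DESeq2 3.46%, with 0 members each, and limma-voom 15.5%, with 2 members. The common biological coefficient of variation was 55.8% in p16-3MR livers and 16.6% in WT livers.

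**Figure D2:**
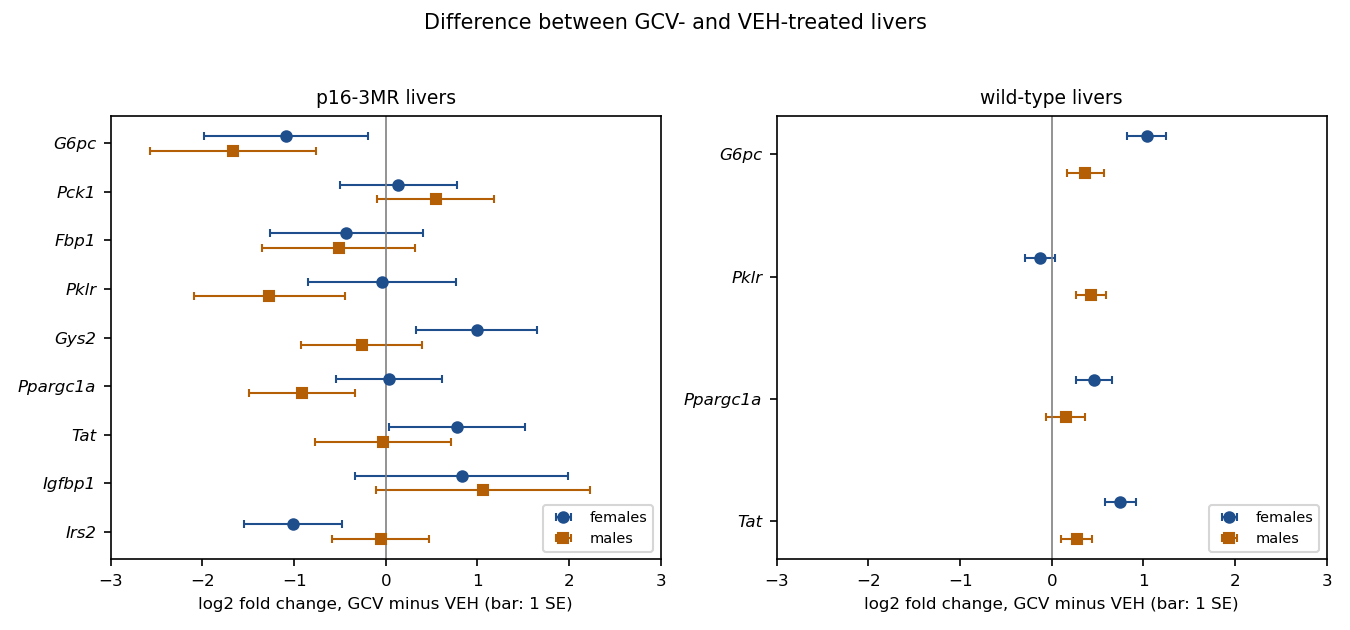
Log2 fold change of GCV over VEH for each gene (horizontal axis) in females (circles) and males (squares), p16-3MR livers left and wild-type livers right; bars are 1 SE and n = 3 livers a group. No value passed the adjusted threshold in the main fit; the bars of p16-3MR livers (SE 0.53 to 1.16) are wider than those of wild-type livers (SE 0.16 to 0.21).

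The variation between p16-3MR livers followed single animals across many of the 9 genes. GCV-treated male 32 was the lowest liver for 6 members (G6pc, Pck1, Pklr, Gys2, Ppargc1a and Tat) and lay below the 12-liver median for 8, and its median distance from the members' medians was -2.57 on the log2 scale. Igfbp1 was the exception, at 39.7 CPM above its median of 17.8 CPM. VEH-treated male 24, the liver with the next lowest hepatocyte sum (44900 CPM) and the next highest Kupffer cell sum (1683 CPM), also lay below the median for 8 members, by a median of -0.46. GCV-treated female 33 was highest for Ppargc1a and Igfbp1 and lowest for Fbp1. These ranks are after TMM scaling, with a factor of 0.259 in liver 33, against 0.850 to 1.80 in the other p16-3MR livers. Before scaling, liver 33 had 26 counts of Ppargc1a and 213 of Igfbp1, against 97 and 587 in VEH-treated female 29. GCV-treated female 35 was highest for Fbp1, Tat and Gys2, and VEH-treated female 29 for Irs2. The hepatocyte sum ran from 112805 to 163927 CPM in GCV-treated females, 93620 to 128763 in females under VEH, 28576 to 96008 in males under GCV and 44900 to 95089 in males under VEH. The Kupffer cell sum ran from 108 to 322, 291 to 932, 213 to 2828 and 150 to 1683 CPM in the same order. The part of these sums in the members' differences was not tested. Leaving out livers 33 and 32 together called no member in any comparison, beside 0% of all genes for GCV against VEH in females, 0.00462% in males and for the difference between their responses, and 0.393%, 0.236% and 0.097% between the sexes with treatments averaged, under VEH and under GCV.

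**Figure D3:**
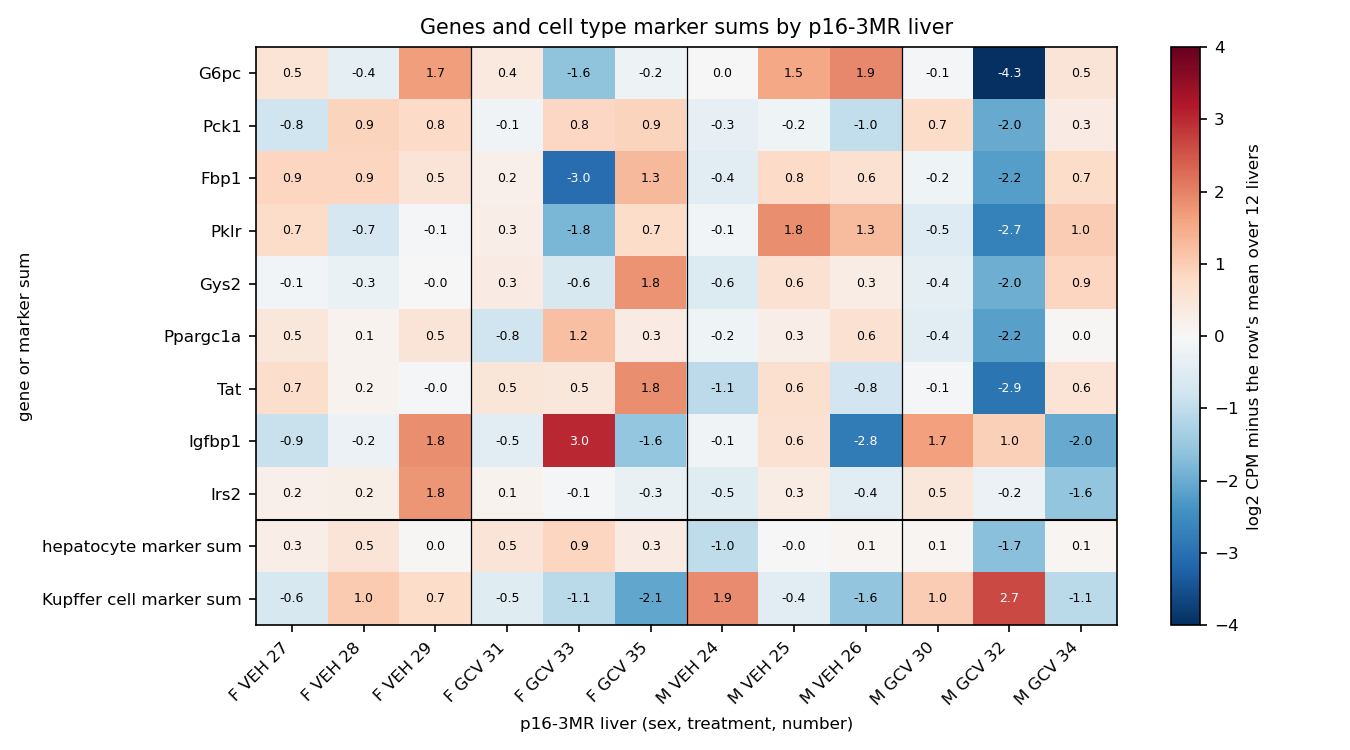
Log2 CPM of the 9 genes and of the summed hepatocyte and Kupffer cell markers (rows) in each p16-3MR liver (columns), as the difference from the row's mean over 12 livers; red is higher and blue lower. The column of GCV-treated male 32 is blue for G6pc, Pck1, Fbp1, Pklr, Gys2, Ppargc1a, Tat and the hepatocyte sum, and red for Igfbp1 and the Kupffer cell sum.

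In WT livers G6pc ranged 5.83-fold over the 12 livers, Ppargc1a 2.75-fold, Tat 2.43-fold and Pklr 2.05-fold. In p16-3MR livers the ranges were 88.2-fold, 12.1-fold, 27.1-fold and 24.1-fold in the same order, and without livers 32 and 33 they were 4.89-fold, 2.76-fold, 7.48-fold and 5.71-fold. Over all 12 livers, the wider ranges of G6pc and Ppargc1a thus rested on these 2 livers. Tat and Pklr ranged more widely than in WT livers without them too. These ranges pool sexes and treatments. Within VEH-treated groups, which hold neither liver, the SD of G6pc log2 CPM was 1.01 in p16-3MR females and 1.02 in p16-3MR males. Among WT mice it was 0.61 in VEH-treated females and 0.11 in VEH-treated males. For Ppargc1a these SDs were 0.20, 0.40, 0.24 and 0.36 in the same order. In WT females, G6pc was 232 CPM in female 4, 185 in female 5 and 224 in female 6 under GCV, and 149 CPM in female 4, 98.9 in female 5 and 63.2 in female 6 under VEH. Every GCV-treated female lay above every VEH-treated one, and the log2 fold change was 1.04 (SE 0.21), a 2.05-fold higher level. It missed the threshold after adjustment (adjusted p = 0.195).

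Tat, in WT females, was 422 CPM in female 4, 413 in female 5 and 450.1 in female 6 under GCV, and 255 CPM in female 4, 288 in female 5 and 221 in female 6 under VEH. These groups did not overlap either, with a log2 fold change of 0.75 (SE 0.17, adjusted p = 0.25). Ppargc1a was 28.2 CPM in female 4, 25.6 in female 5 and 25.7 in female 6 under GCV, and 18.7 CPM in female 4, 22.8 in female 5 and 16.2 in female 6 under VEH, again without overlap (log2 fold change 0.46, SE 0.19, adjusted p = 1). Pklr was 90.4 CPM in female 4, 89.5 in female 5 and 109 in female 6 under GCV, and 102 CPM in female 4, 114 in female 5 and 99.7 in female 6 under VEH, with overlapping groups (log2 fold change -0.13, SE 0.16, adjusted p = 1). Of the 4 readable members, 3 thus showed non-overlapping groups with higher values under GCV, against 5.05% of all 12643 genes.

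None of the 4 was called in WT females in the main fit, in which 1 gene of the table was (0.00791%). The threshold was passed in several alternatives. Tat was called by DESeq2 (adjusted p = 0.0224), with 0.134% of all genes, and both it and G6pc in a fit of the 6 females alone (adjusted p = 0.00102 for G6pc and 6.46e-05 for Tat), with 0.353%. G6pc was also called when VEH-treated female 4 (adjusted p = 0.00204) or VEH-treated male 1 (0.0434) was left out, and both genes when GCV-treated male 2 was (0.0377 for G6pc and 0.0183 for Tat) or GCV-treated male 2 and VEH-treated male 1 together were (0.000486 and 6.88e-05). These 4 fits called 0.0238%, 0.0475%, 0.0475% and 0.357% of all genes. The males enter the fit through the shared estimate of spread. limma-voom called neither, and 0.0237% of all genes. Over the alternatives without a replicate block the adjusted p ran from 0.000486 to 0.663 for G6pc and from 6.46e-05 to 0.953 for Tat. The direction in females was the same in all 22 alternatives for each of G6pc, Tat and Ppargc1a.

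In WT males, G6pc was 289 CPM in male 1, 217 in male 2 and 369 in male 3 under GCV, and 246 CPM in male 1, 219 in male 2 and 212 in male 3 under VEH. GCV-treated male 2 lay inside the VEH range and the other GCV-treated males above it (log2 fold change 0.37, SE 0.21, adjusted p = 0.889). Tat was 393 CPM in male 1, 262 in male 2 and 536 in male 3 under GCV, and 368 CPM in male 1, 307 in male 2 and 311 in male 3 under VEH (log2 fold change 0.27, SE 0.17, adjusted p = 0.889). Here too GCV-treated male 2 stood at the low end, below all VEH-treated males, and without GCV-treated male 3 the value was -0.0075. Ppargc1a was 15.7 CPM in male 1, 13.9 in male 2 and 17.4 in male 3 under GCV, and 16.0 CPM in male 1, 16.2 in male 2 and 10.3 in male 3 under VEH, a log2 fold change of 0.15 (SE 0.21, adjusted p = 0.94), and -0.04 without VEH-treated male 3.

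Pklr in WT males was 98.7 CPM in male 1, 116 in male 2 and 85.5 in male 3 under GCV, and 100.1 CPM in male 1, 56.4 in male 2 and 68.1 in male 3 under VEH. VEH-treated male 1 lay among the GCV-treated males and apart from the other VEH-treated ones. Pklr gave a log2 fold change of 0.43 (SE 0.17, adjusted p = 0.889), and without VEH-treated male 1 it was 0.69 and called (adjusted p = 0.0348), with 46 genes of the table (0.364%). No gene of the table was called in WT males by edgeR in the main fit (0%), while 640 (5.06%), among them 1 member, Pklr, were at an unadjusted p-value under 0.05. With GCV-treated male 2 and VEH-treated male 1 both left out, the log2 fold changes in males were 0.60 for G6pc, 0.58 for Tat, 0.55 for Pklr and 0.33 for Ppargc1a. Leaving them out raised the genes called in WT males from 0 to 358 (2.84%). That omission was chosen from the counts being tested, so its p-values are not independent evidence. The difference between the female and male responses was 0.67 for G6pc (SE 0.29, adjusted p = 0.982), -0.55 for Pklr (SE 0.23, adjusted p = 0.982), 0.48 for Tat (SE 0.24, adjusted p = 0.982) and 0.31 for Ppargc1a (SE 0.29, adjusted p = 0.982). Without a replicate block, none of the 4 was called by edgeR, DESeq2 or limma-voom, which called 1 gene of the table each (0.00791%). With the block, edgeR called G6pc (0.76, adjusted p = 0.00446), beside 79 genes of the table (0.625%). At an unadjusted p-value under 0.05 stood 2 members by edgeR, beside 4.45% of all genes, 1 by DESeq2, beside 2.86%, and 3 by limma-voom, beside 6.75%.

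**Figure D4:**
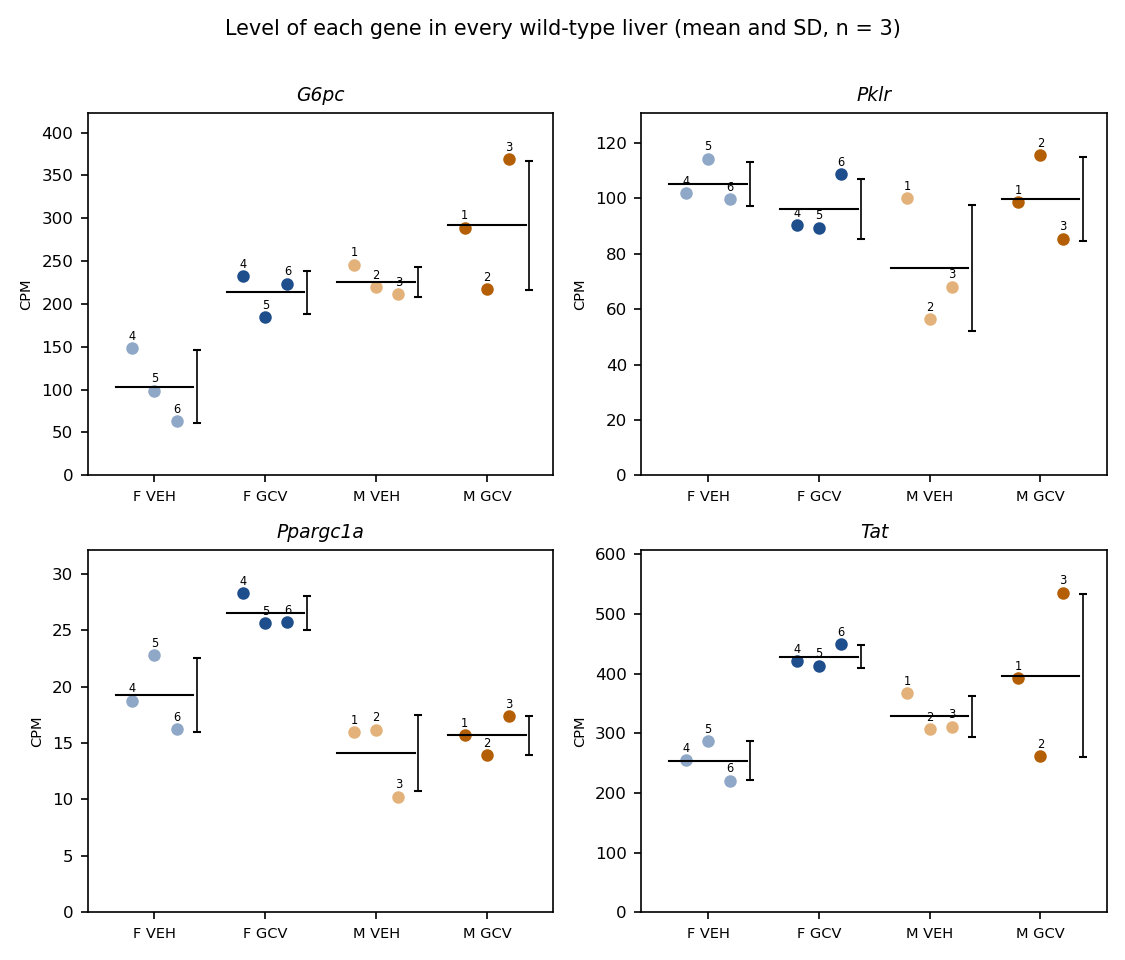
CPM of G6pc, Pklr, Ppargc1a and Tat (vertical axes from 0) in each of the 12 wild-type livers, by sex and treatment; points are livers with their numbers, lines are means and bars the SD (n = 3). G6pc is lowest in VEH-treated females (63.2 to 149 CPM) and Ppargc1a highest in GCV-treated females (25.6 to 28.2 CPM).

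Only comparisons of the sexes in WT livers gave called members in the main fit. With both treatments averaged, G6pc was lower in WT females than in WT males, 159 ± 67.9 against 259 ± 61.1 CPM (SD, n = 6 livers a sex; log2 fold change -0.78, SE 0.15, adjusted p = 0.00122). Ppargc1a was higher in females, 22.9 ± 4.60 against 14.9 ± 2.54 CPM (log2 fold change 0.61, SE 0.14, adjusted p = 0.00823). Among all genes 1004 were called (7.94%). Both calls held in all 20 alternatives. The sexes overlapped for both genes when treatments were pooled. Pklr (0.22, SE 0.12, adjusted p = 0.303) and Tat (-0.13, SE 0.12, adjusted p = 0.613) were not called, and without VEH-treated male 1 Pklr was (0.35, adjusted p = 0.0191), with 9.95% of all genes, as it was without that male and GCV-treated male 2 (0.41, adjusted p = 0.00319), with 10.2%.

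Within a treatment, the sex difference of G6pc was called among VEH-treated WT mice (103.6 ± 43.0 against 226 ± 18.0 CPM, n = 3; log2 fold change -1.11, SE 0.21, adjusted p = 0.00221), where every female lay below every male and 3.82% of all genes were called. Among GCV-treated mice it was -0.45 (SE 0.21, adjusted p = 0.364), with overlapping groups, and it was called without males GCV 2 and VEH 1 (-0.62, adjusted p = 0.025; 4.97% of all genes). Ppargc1a was called among GCV-treated mice (26.5 ± 1.49 against 15.7 ± 1.72 CPM, n = 3; log2 fold change 0.76, SE 0.20, adjusted p = 0.0365), where every female lay above every male, as the sexes did not overlap for 18.4% of all genes, and 3.24% were called. That call was lost when any 1 of the 6 GCV-treated livers was left out (adjusted p = 0.0512 to 0.143) and without males GCV 2 and VEH 1 (0.0887). Among VEH-treated mice, Ppargc1a gave 0.46 (SE 0.20, adjusted p = 0.279), with all females above all males, and Tat -0.37 (SE 0.17, adjusted p = 0.306), with all females below all males. Pklr gave 0.50 (SE 0.16, adjusted p = 0.109) among VEH-treated mice and was called by limma-voom (0.63, adjusted p = 0.0216; 4.94% of all genes) and without VEH-treated male 1 (0.76, adjusted p = 0.00128; 5.67% of all genes) or without it and GCV-treated male 2 (0.75, adjusted p = 0.000191; 7.67%). Among VEH-treated WT mice, 18.5% of all genes had sexes that did not overlap.

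Ordered by group mean, WT G6pc ran from VEH-treated females (103.6 CPM) through GCV-treated females (214) and VEH-treated males (226) to GCV-treated males (292). The middle pair differed by less than their SDs (25.3 and 18.0). Ppargc1a ran from VEH-treated males (14.1) and GCV-treated males (15.7), which differed by less than the SD of either, through VEH-treated females (19.3 CPM) to GCV-treated females (26.5). Tat was lowest in VEH-treated females (255), then came VEH-treated males (329), males under GCV (397) and females under GCV (428), and the last pair lay within the SD of 137 in GCV-treated males. Pklr was lowest in VEH-treated males (74.9), and females under GCV (96.2), males under GCV (99.96) and females under VEH (105) followed, and the last 3 lay within 1 SD of GCV-treated males (15.2).

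In p16-3MR mice no member was called between the sexes. With treatments averaged, the estimates were highest for Tat (0.91, SE 0.53, adjusted p = 0.712), Igfbp1 (0.84, SE 0.82, adjusted p = 0.854) and Pck1 (0.71, SE 0.45, adjusted p = 0.72), and Ppargc1a stood at 0.58 (SE 0.41, adjusted p = 0.749), G6pc at -0.23 (SE 0.63, adjusted p = 1.00). The directions of Igfbp1 and G6pc rested on single livers, with -0.41 for Igfbp1 without liver 33 and 0.13 for G6pc without liver 34. By edgeR, DESeq2 and limma-voom 0 of 9 members were called, beside 0.303%, 0.919% and 0.988% of all genes, and 0 were at an unadjusted p-value under 0.05, beside 7.05%, 6.9% and 12%. Among VEH-treated mice the 3 tools called 0 members, beside 0.12%, 0.455% and 0.708% of all genes, and among GCV-treated mice 0, beside 0.0965%, 0.602% and 0.354%. At an unadjusted p-value under 0.05 stood 0 members by edgeR (2.74% of all genes under VEH, 8.41% under GCV) and DESeq2 (2.41% and 9.09%), and 1 member in each by limma-voom (10.6% and 15.6%). The nearest was Irs2 among VEH-treated mice (log2 fold change 1.12, SE 0.53, adjusted p = 1), and it was 0.39 without VEH-treated female 29.

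The other genes of the pathway were read from lists of 109 genes, the 9 members included, that cover substrate entry, regulated and reversible steps of glycolysis, glycogen, insulin signalling, hormonal and transcriptional input, insulin- or glucocorticoid-responsive targets and markers of fasting and feeding. All 109 were in the p16-3MR table and 52 were readable in WT. By edgeR, none of the 109 was called for GCV against VEH in p16-3MR mice of either sex, with 58 higher under GCV in females (median 0.04) and 46 in males (median -0.06). At an unadjusted p-value under 0.05 (7.37% of all genes) stood, in females, 11 of the 109, among them Fbp2, Gpi1, Cebpb, Phkg2, Pfkfb3, Pfkfb4 and Per1 with higher values and Ppp1r3c, Cyp4a14 and Phka2 with lower ones. Fbp2 was listed at 0 in all VEH-treated females. Ppp1r3c, a glycogen-targeting subunit of protein phosphatase, was 13.8 ± 11.9 CPM under GCV and 88.4 ± 31.2 under VEH (SD, n = 3; log2 fold change -2.62, SE 0.89, adjusted p = 0.647). In males 5 of the 109 were at that level (1.91% of all genes): Cebpb, Fkbp5 and Ptpn1 with higher values, and Pdk4 and Cyp4a14 with lower ones. Cebpb, a factor that raises Pck1 transcription, was on the higher side in both sexes (log2 fold change 1.27, SE 0.42, adjusted p = 0.646 in females and 1.04, SE 0.42, adjusted p = 1 in males).

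In WT mice none of the 52 was called for GCV against VEH in either sex by edgeR in the fit of all 12 livers without a replicate block. Without males GCV 2 and VEH 1, 5 were called in females (0.357% of all genes), 10 in males (2.84%) and 2 for the difference between the responses (1.41%), against 0 in each with them, and the fit of the 6 females called 4 (0.353%). At an unadjusted p-value under 0.05 (4.56% of all genes), females had 8, among them G6pc, Tat, Klf15 and Ppargc1a with higher values under GCV, and Scd1, Fkbp5 and Phkg2 with lower ones. Klf15, a fasting-induced factor for amino acid use, was 95.4 ± 3.04 CPM under GCV and 67.6 ± 11.3 under VEH (SD, n = 3, log2 fold change 0.50, SE 0.17, adjusted p = 0.977). Scd1, a desaturase of the fed state, was 2803 ± 169 against 4819 ± 757 CPM (-0.78, SE 0.23, adjusted p = 0.629). DESeq2 called 2 of the 52 in females, beside 17 of all genes (0.134%). In males 7 of the 52 stood at an unadjusted p-value under 0.05 (5.06% of all genes). Ppp1r3c was the lowest in p, at 12.8 ± 2.31 CPM under GCV and 26.4 ± 2.85 under VEH (-1.03, SE 0.23, adjusted p = 0.383), and Pklr and Grb10 were among those with higher values, Fkbp5, Fgf21 and Ldha among those with lower ones.

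Between the sexes in WT mice, 11 of the 52 were called with treatments averaged, beside 7.94% of all genes, and 16 without males GCV 2 and VEH 1, beside 10.2%. Higher in females were Pnpla3, Fkbp5, Akt1, Ppargc1a, Foxa2, Gckr and Hsd11b1, and lower were, among others, G6pc, Ldha and Gcgr. Gckr was 104 ± 14.9 CPM in females and 78.3 ± 10.9 in males (SD, n = 6, log2 fold change 0.41, SE 0.11, adjusted p = 0.0174). The glucagon receptor gene Gcgr was 80.5 ± 5.98 against 100.3 ± 5.80 CPM (-0.32, SE 0.08, adjusted p = 0.016). Akt1, a kinase of the insulin pathway, was 41.2 ± 4.81 against 26.4 ± 3.51 CPM (0.64, SE 0.11, adjusted p = 0.000606). Hsd11b1, whose enzyme regenerates active glucocorticoid, was 308 ± 20.1 against 242 ± 20.0 CPM (0.35, SE 0.07, adjusted p = 0.00234), and Fkbp5, a glucocorticoid-induced cochaperone, gave a log2 fold change of 0.74 (SE 0.18, adjusted p = 0.0124). Pnpla3, a lipid droplet protein of the fed state, was 1.41 ± 0.895 CPM in females and 0.0664 ± 0.103 CPM in males, under the floor of 3 counts. The hepatocyte marker sum, of which 2 of 8 markers were readable, ran from 13215 to 14880 CPM in females and from 16887 to 18920 in males, and its part in these sex differences was not tested.

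**Figure D5:**
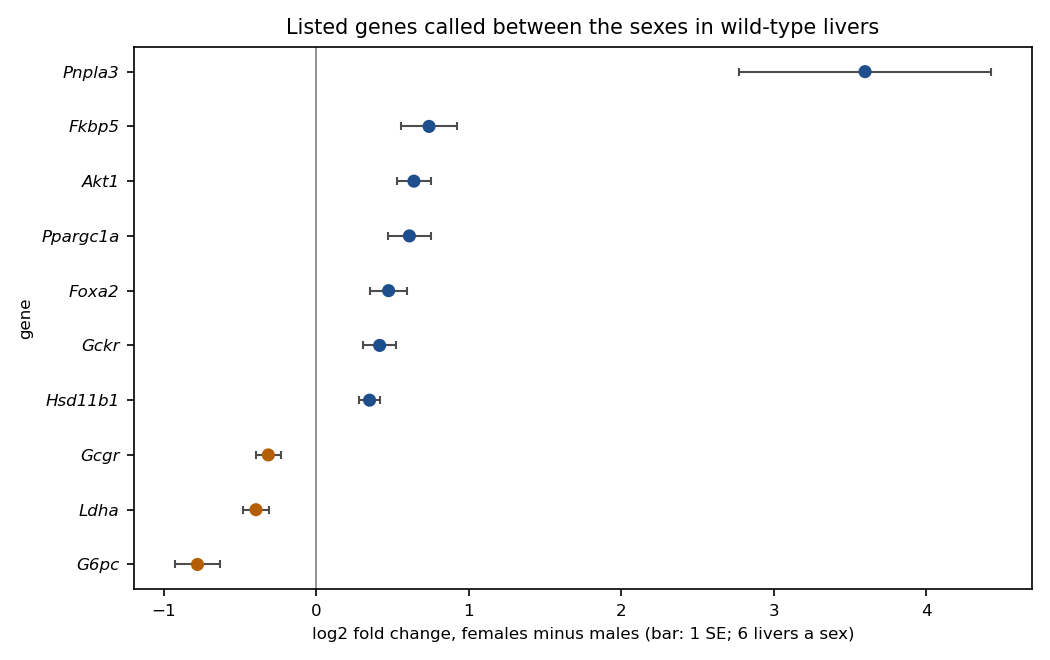
Log2 fold change of females over males (horizontal axis, both treatments averaged) of 10 of the 11 listed genes called in wild-type livers; bars are 1 SE, 6 livers a sex, blue is higher and orange lower in females. G6pc (-0.78) and Ppargc1a (0.61) are the members among them, and Pnpla3 has the widest bar and a mean under the floor in males.

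Set side by side without a test, G6pc differed in direction between the tables under GCV in females, with a log2 fold change of -1.09 (SE 0.89; -0.44 without VEH-treated female 29) in p16-3MR mice and 1.04 (SE 0.21) in WT mice, while Tat was 0.77 (SE 0.74; 0.16 without liver 35) and 0.75 (SE 0.17). Pklr was near 0 in females of both tables in the main fit (-0.04 and -0.13) and of opposite sign in males (-1.27, SE 0.82, and 0.43, SE 0.17). In p16-3MR females Pklr was -0.535 without liver 35 and 0.41 without VEH-treated female 27. In p16-3MR males it was -2.46 without liver 34 and -0.78 without liver 32. For Ppargc1a the values in females were 0.04 (p16-3MR; -0.56 without liver 33) and 0.46 (WT). The levels themselves come from tables normalized apart and differ in age and batch, and are not compared.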

How the data were processed

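RNA-seq of 24 mouse livers was analysed. Per the labels and methods, the authors made Smart-3SEQ libraries, which read the 3′ ends of transcripts, trimmed them with Trim Galore 0.6.10, checked them with FastQC 0.11.9, estimated abundance with Salmon 1.10.3 (build mm10), summed it to genes with tximport and dropped genes under 3 reads. The values they deposited are estimated counts (expected counts), whole numbers not scaled for library size, in 1 table per genotype.

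Counts as deposited were tested with edgeR 4.0.16 in R 4.3.3 (TMM, quasi-likelihood test, a mean for each group fitted to all 12 livers of the table, Benjamini-Hochberg over all its genes), and calls were made at an adjusted p-value under 0.05. CPM uses TMM library sizes; log2 CPM has a prior count of 2. CPM was compared within genes only. Ensembl IDs were given symbols and coordinates from GENCODE M21 on GRCm38 (21698 of 21755 matched); 10496 of 12643 WT labels matched 1 symbol, 2067 several and 80 none, and unmatched rows stayed in the fit. DESeq2 1.42.0 and limma 3.58.1 (voom with quality weights), other scalings, filterByExpr, a fit of 6 livers, a replicate block in WT, each liver left out, an adjusted p-value of 0.1, and fits without mitochondrially encoded genes were the alternatives; fits without livers 33 and 32, and without WT males GCV 2 and VEH 1, were added after seeing the data. Scripts (Python 3.11.15, numpy 2.4.6, pandas 2.3.3, matplotlib 3.10.9) were first tested on simulated data.

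The members, the pathway and marker lists and the tests were chosen with earlier results of these data known. The named genes are the 9 members and, of the pathway lists, those called (at most 10 per comparison by p) plus those a group's range needs; listed genes at an unadjusted p-value were named after their values were seen. Floors of 3 counts cover counting error only, since PCR copies are not independent molecules. The labels number the livers and say no more of their source, so p-values measure only the spread between these samples. Promoters were read from RefSeq windows on GRCm38.p6; 8 of 9 members matched. A few genes that met these rules are not reported here.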

Additional observations from a re-analysis of the deposited data

How the results depend on the processing

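In p16-3MR livers no member was called in any of the 124 alternative counts over the 6 comparisons, which called 0 to 215 genes of the whole table (up to 0.988%), and 69 single-gene values, none of them called, changed sign while 1047 kept sign and side of the threshold. In WT livers 7 single-gene values changed sign, 473 kept both, 21 were called only in the alternative and 7 only in the main fit. The number of WT members called for GCV against VEH in females, 0 in the main fit, was 1 by DESeq2, 2 in the fit of 6 livers, 2 without males GCV 2 and VEH 1, and 0 to 2 with single livers left out; these fits called 17, 44, 45 and 0 to 12 genes of the whole table, against 1. In WT males it was 0 in the main fit, 2 without males GCV 2 and VEH 1 (Pklr, adjusted p = 0.0321, and Tat, adjusted p = 0.00524), and 0 to 1 with single livers left out, with 358 and 0 to 46 genes of the table, against 0. Between the sexes it was 1 among VEH-treated mice in the main fit, 2 by limma-voom, 2 without males GCV 2 and VEH 1, and 1 to 2 with single livers left out, with 483, 624, 968 and 319 to 716 genes of the table. Among GCV-treated mice it was 1 in the main fit and 0 to 1 with single livers left out; without males GCV 2 and VEH 1 it was again 1, with G6pc (adjusted p = 0.025) called in place of Ppargc1a (adjusted p = 0.0887), with 410, 289 to 547 and 627 genes of the table. The cause of these changes was not tested.

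Same-numbered WT mice did not deviate together in every pair: the correlations of their deviations from the group means were -0.0683, -0.0534 and -0.00676 in females and 0.171, 0.267 and -0.0637 in males, over 0.1 in 2 of 6 pairs, so that the numbers were not taken to pair the samples. With the replicate number as a block, 2 WT members were called in females (G6pc, adjusted p = 4.64e-12, and Tat, adjusted p = 2.36e-07), 0 in males, and 1 for the difference between the sexes' responses (G6pc 0.76, adjusted p = 0.00446), while the block raised the genes called in the whole table from 1, 0 and 1 to 106, 68 and 79. The p16-3MR mice share no numbers, so no paired fit was made there.

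Of the 52 listed WT genes, the calls for GCV against VEH in females, 0 in the main fit, were 2 by DESeq2, 4 in the fit of 6 livers, 5 without males GCV 2 and VEH 1, 6 with the block and 0 to 2 with single livers left out. In males, with 0 in the main fit, 10 were called without males GCV 2 and VEH 1 (358 genes of the table), 3 without VEH-treated male 1 (46 genes), 3 with the block and 0 with any other single liver left out. Counting error weighs most on Ppargc1a, Igfbp1 and Irs2 in p16-3MR livers, each with 17 counts in the liver that had fewest.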

Other observations

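As a description over 12 livers a table and with no p-value, the genes whose log2 CPM followed each member most closely were sought among genes with a mean of at least 10 counts. The livers share depth and quality differences, which these correlations also carry. In WT livers, the gene nearest to Tat was Nat8f1 (Pearson r = 0.889), followed by Klf15 (0.884), and the nearest to Ppargc1a was Sult1d1 (0.952). The nearest to G6pc was Spint2 (0.936) and to Pklr Zfp398 (0.922). With the 4 group means subtracted, the nearest were Dhdds for Tat (0.967), Ticam1 for Ppargc1a (0.947), Mrpl3 for G6pc (0.943) and Zfp212 for Pklr (0.928), none of which was the nearest before subtraction. For Tat, Rnf40 (0.963) and Mat1a (0.939) then came next, and Klf15 was no longer among the 3 nearest. In p16-3MR livers with group means subtracted, the nearest were Ces2g for Pklr (0.997), Grpel1 for Gys2 (0.99), Kcnk5 for Tat (0.968), Htatip2 for G6pc (0.962), Actr8 for Ppargc1a (0.96), Zfas1 for Igfbp1 (0.958) and Pdzk1ip1 for Pck1 (0.88). Livers 32 and 33 stand apart in that table for many genes at once.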
